A study of Homo sapiens with 6 samples.

Results

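In the Notch pathway 10 genes were followed by RNA sequencing in KYSE510 cells, an established line of oesophageal squamous cell carcinoma, among 62700 genes counted. They are the receptor genes NOTCH1, NOTCH2 and NOTCH3, the ligand genes JAG1, JAG2 and DLL1, and 4 genes that Notch signalling is known to switch on, HES1, HES4, HEY1 and NRARP. The members were taken by symbol, and 10 of the 10 symbols were found. The list was chosen by pathway with the shRNH1 to shControl differences of these same libraries in view, so the difference of each member between groups is a description here and carries no test. The shRNH1 cells (3 libraries) carried an shRNA against the ribonuclease gene that the labels call RNH1, in a model meant to induce R-loops, in which RNA pairs with 1 strand of DNA, and have the genotype label RNH1 knockdown. The shControl cells (3 libraries) carried a control shRNA and have the genotype label WT. Both groups were grown in the same medium with serum, and the number of shRNA constructs or clones remains not given in the sources used here.

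Notch receptors and their ligands are both membrane proteins, so signalling passes between touching cells. Ligand binding lets ADAM proteases and then gamma-secretase cut the receptor, and the freed intracellular domain joins the DNA-binding protein RBPJ and a Mastermind coactivator to switch on HES and HEY genes, which encode transcriptional repressors. In stratified squamous epithelium such as that of the oesophagus, Notch signalling is known for promoting the step from basal to suprabasal cells, and NOTCH1 is a recurrently mutated gene in squamous cancers.

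Total counts were 31394687 to 33421217 in shRNH1 libraries and 40225486 to 41103220 in shControl libraries, and values below are CPM, counts scaled to a common library size by TMM, unless another unit is named. RNASEH1, which encodes the ribonuclease that cuts RNA in RNA:DNA hybrids, had 251, 247 and 232 counts in shRNH1 libraries, against 1357, 1344 and 1015 in shControl libraries. It stood at -2.14 ± 0.116 on the log2 scale (fold change ± SE; Benjamini-Hochberg adjusted p = 1.61e-13 by edgeR's quasi-likelihood F test), and an exact two-sided permutation of its CPM reached p = 0.1, the lowest value possible with 3 libraries a group. RNH1 as an approved symbol belongs to the ribonuclease inhibitor, which stood at -0.19 ± 0.112 (log2 fold change ± SE; adjusted p = 0.221, edgeR). Of 8 squamous markers, TP63 (52.5 and 53.3 CPM in shRNH1 and shControl cells) and COL17A1 (284 and 210.2 CPM) were well detected, whereas PKP1 had 10 to 21 counts in shRNH1 libraries and 0 to 2 in shControl libraries. The keratin genes KRT5, KRT14 and KRT6A fell in shRNH1 cells (log2 fold changes -1.33, -1.40 and -2.13), and SOX2 (2.68), PKP1 and COL17A1 (0.44) rose. Of the leukocyte markers, PTPRC, CD3E and CD14 had 0 to 23 counts a library and CSF1R 199 to 286. COL1A2 and DCN of fibroblasts and KDR of endothelium were listed at 0, while COL1A1 (123 CPM in shRNH1 cells and 62.5 in shControl cells), CDH5 (12.9 and 15.5 CPM in shRNH1 and shControl cells) and PECAM1 (6.29 and 4.43 CPM in shRNH1 and shControl cells) were detected.

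Known Notch targets carry RBPJ sites near their start, and the promoter windows of HES1, HES4 and NRARP are shown for that reason. The windows run from 250 bases before to 50 bases after the transcription start, 5′ to 3′ on the gene's strand, from RefSeq on GRCh38.p14, and lie at chr3:194135898-194136197 (plus strand) for HES1, chr1:1000048-1000347 (minus) for HES4 and chr9:137302222-137302521 (minus) for NRARP. Capitals mark TGGGAA, the core of the RBPJ site.
HES1: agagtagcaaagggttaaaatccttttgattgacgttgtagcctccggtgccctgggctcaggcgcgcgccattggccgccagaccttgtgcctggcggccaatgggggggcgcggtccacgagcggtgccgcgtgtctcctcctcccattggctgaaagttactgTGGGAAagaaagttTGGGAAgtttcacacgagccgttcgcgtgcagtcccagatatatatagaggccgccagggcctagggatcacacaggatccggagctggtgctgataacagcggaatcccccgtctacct
HES4: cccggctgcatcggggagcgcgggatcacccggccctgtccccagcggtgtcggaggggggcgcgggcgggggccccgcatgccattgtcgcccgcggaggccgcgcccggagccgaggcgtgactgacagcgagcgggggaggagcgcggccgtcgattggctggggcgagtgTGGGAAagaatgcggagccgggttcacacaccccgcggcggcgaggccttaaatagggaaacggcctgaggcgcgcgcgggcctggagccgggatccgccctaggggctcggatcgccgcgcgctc
NRARP: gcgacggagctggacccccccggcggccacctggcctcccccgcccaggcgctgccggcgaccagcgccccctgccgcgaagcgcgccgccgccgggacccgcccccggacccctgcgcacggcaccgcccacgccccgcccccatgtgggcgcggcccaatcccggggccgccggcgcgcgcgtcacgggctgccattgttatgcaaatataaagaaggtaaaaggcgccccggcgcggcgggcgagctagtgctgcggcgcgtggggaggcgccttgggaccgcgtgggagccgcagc
HES1 held TGGGAA at 84 and at 70 bases before its start, both on the gene's strand, and HES4 held it at 76 bases before its start, so the 2 genes share a match of the same strand at a like distance. The longer form GTGGGAA, which contains the core, matched once in HES1 and once in HES4, and NRARP had no match of either. Of 35116 promoter windows of the same length, 24.0% held TGGGAA or its reverse complement TTCCCA, 3.80% held it at least 2 times, and 6.25% held GTGGGAA or TTCCCAC. HES1 also held 4 matches of CACNAG or its reverse complement CTNGTG, the N-box that HES proteins are known to bind, against at least 1 in 38.0% and at least 2 in 8.94% of all windows. NOTCH1 held 2 of these matches, NOTCH2, NOTCH3 and NRARP 1 each, and HES4, JAG1 and JAG2 0. The 2 matches of NOTCH1 overlap, as 1 stretch of letters that matches on both strands. Windows were searched for 8 members, not for HEY1 or DLL1, and among the receptor and ligand genes NOTCH1, NOTCH2, NOTCH3, JAG1 and JAG2 had no TGGGAA. A match is a description of letters, not a bound site.

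By level per exon length, the receptor, ligand and target genes spanned a wide range in both groups. HES4 stood highest, at 108 ± 20.2 CPM per kb in shRNH1 cells and 123 ± 34.8 in shControl cells (SD, n = 3 each). NOTCH1 (57.7 and 71.2 CPM per kb in shRNH1 and shControl cells), NRARP (51.9 in shRNH1 cells and 55.05 in shControl cells) and JAG2 (35.0 in shRNH1 cells and 49.5 in shControl cells) came next in both groups. HES1 (19.4 CPM per kb in shRNH1 cells and 18.3 in shControl cells) and NOTCH2 (16.0 in shRNH1 cells and 21.2 in shControl cells) followed, with HES1 above NOTCH2 in shRNH1 cells and below it in shControl cells. In shRNH1 cells DLL1 (6.52), HEY1 (6.23) and JAG1 (3.11) came after these and NOTCH3 (0.243) last, and in shControl cells DLL1 (7.43), JAG1 (4.21), HEY1 (1.58) and NOTCH3 (0.145). Neighbours in this order whose libraries overlapped were NOTCH1 and NRARP in both groups, NRARP and JAG2 in shControl cells, and DLL1 and HEY1 in shRNH1 cells. HEY1 thus ranked level with DLL1 in shRNH1 cells but between JAG1 and NOTCH3 in shControl cells.

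**Figure D1:**
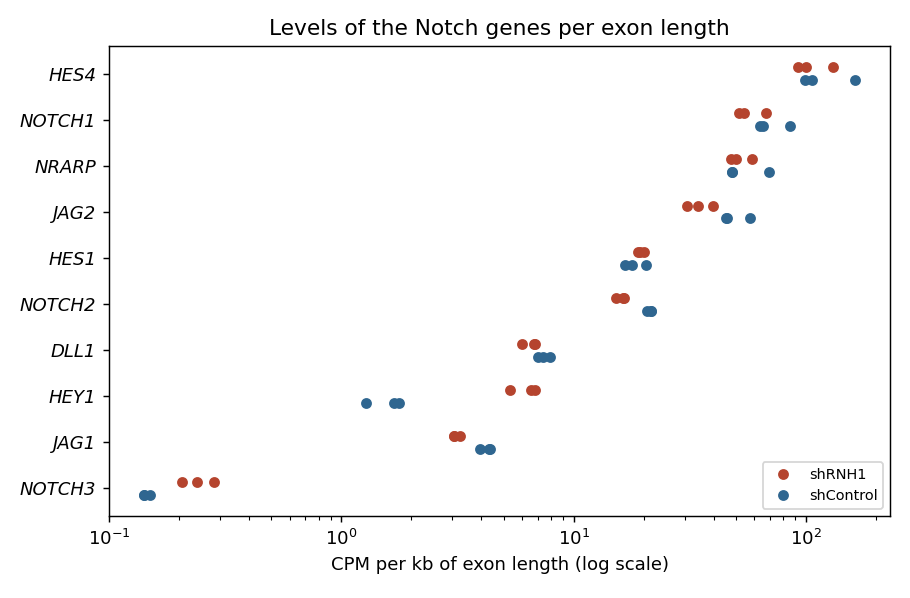
Levels of the 10 Notch genes in CPM per kb of exon length on a log axis, 1 point per library, shRNH1 in red above shControl in blue. HES4 averaged 108 CPM per kb in shRNH1 cells and 123 in shControl cells, NOTCH3 0.243 and 0.145, and HEY1 is the gene whose groups lie farthest apart.

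Of the 10 members, 2 were higher (1 without shRNH1 replicate 1) and 3 lower in shRNH1 cells past an adjusted p of 0.05, and 6 had groups that did not overlap. Over all 19682 genes tested, 27.6% passed, 15.3% higher and 12.3% lower, and 40.0% had groups without overlap. Because the members were listed from this contrast, nothing is read from these counts. The median log2 fold change was -0.19 over the members and 0.02 over all genes tested.

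Among the receptor genes NOTCH2 was lower in shRNH1 cells, NOTCH3, at a far smaller level, was higher, and NOTCH1 overlapped between groups. NOTCH1 (GRCh38 chromosome 9, 136494433 to 136545786, minus strand) is the receptor gene with the highest level here. It measured 559.7, 701 and 534 CPM in shRNH1 libraries, against 675, 658 and 884 CPM in shControl libraries. The groups overlapped, since shRNH1 replicate 2 lay above 2 shControl libraries and shControl replicate 3 stood far above the rest. The log2 fold change of NOTCH1 was -0.30 (SE 0.118) with a 95% interval of -0.55 to -0.06. Scaling by library size only gave -0.18 and an offset for expression level -0.13, and leaving out shControl replicate 3 gave -0.15. The value was -0.43 without shRNH1 replicate 2, -0.39 without shControl replicate 2 and -0.33 by DESeq2. In RNA from bulk cells, fewer cells that express a gene and less RNA per cell cannot be told apart.

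NOTCH2 (chromosome 1, 119911553 to 120069626, minus strand) measured 275, 257 and 275 CPM in shRNH1 libraries, against 361, 360.1 and 347 CPM in shControl libraries. Every shRNH1 library lay below every shControl library. The means were 269 ± 10.7 and 356 ± 7.72 CPM in shRNH1 and shControl cells (SD, n = 3 each), and the log2 fold change was -0.40 (SE 0.091), or 1.32-fold lower. NOTCH2 has near-identical partial copies, the NOTCH2NL genes, which held 0 to 125 counts a library against 9015 to 14885 for NOTCH2. How reads matching more than 1 of these genes were counted was not examined, so the low counts do not show what NOTCH2 shares with them. By edgeR's test 0 of 3 tested copies passed, against 27.6% of all genes (0 at an unadjusted p below 0.05, 0 by DESeq2 and 0 by limma-voom). NOTCH2NLC was the 1 copy with separate groups, lower in shRNH1 cells (log2 fold change -0.35, SE 0.204). Over all genes tested, 40.0% had separate groups.

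NOTCH3 (chromosome 19, 15159038 to 15200981, minus strand) had 90, 79 and 64 counts in shRNH1 libraries, against 55, 55 and 49 counts in shControl libraries. Its CPM were 2.65, 2.25 and 1.94 in shRNH1 libraries, against 1.41, 1.33 and 1.33 in shControl libraries. The groups did not overlap, but the gene sat near the low end of what was counted. This gave a log2 fold change of 0.75 with SE 0.239 and a 95% interval of 0.26 to 1.24. It was 0.63 without shRNH1 replicate 1 and 0.63 with the expression level offset. As a share of the 3 receptor genes per kb, NOTCH3 took 0.288% to 0.4002% in shRNH1 libraries and 0.134% to 0.174% in shControl libraries, while NOTCH1 took 75.6% to 81.3% and 74.6% to 80.4%.

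The Jagged ligand genes and the Delta ligand gene DLL1 were all lower in every shRNH1 library than in every shControl library, DLL1 by a narrow gap. JAG1 (chromosome 20, 10637684 to 10673999, minus strand) measured 30.1, 28.4 and 28.4 CPM in shRNH1 libraries, against 40.4, 36.8 and 40.2 CPM in shControl libraries. Each shRNH1 library lay well below each shControl library, with a log2 fold change of -0.43 (SE 0.095), or 1.35-fold lower. JAG2 (chromosome 14, 105140981 to 105168824, minus strand), the most abundant ligand gene here, measured 219, 255 and 198 CPM in shRNH1 libraries, against 289, 292.5 and 368 CPM in shControl libraries. Its groups did not overlap either, although shControl replicate 3 stood above the other shControl libraries. The log2 fold change of JAG2 was -0.50 (SE 0.109), or 1.41-fold lower.

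DLL1 (chromosome 6, 170282206 to 170306565, minus strand) measured 21.7, 22.1 and 19.3 CPM in shRNH1 libraries, against 23.8, 22.55 and 25.5 CPM in shControl libraries. The groups were separate by a narrow gap. For DLL1 the log2 fold change was -0.19 (SE 0.103) with a 95% interval of -0.40 to 0.02, and -0.07 with library size alone. The span of DLL1 overlaps FAM120B on the other strand, which held 7234 counts against 4948 for DLL1 over the 6 libraries and had a log2 fold change of -0.03 (SE 0.100), and the strand setting of the counting remains not given in the sources used here. Within each library, the 3 ligand genes summed to 58.7 to 62.7 units per 100 units of the 3 receptor genes (both per kb) in shRNH1 libraries and to 65.7 to 66.7 in shControl libraries.

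**Figure D2:**
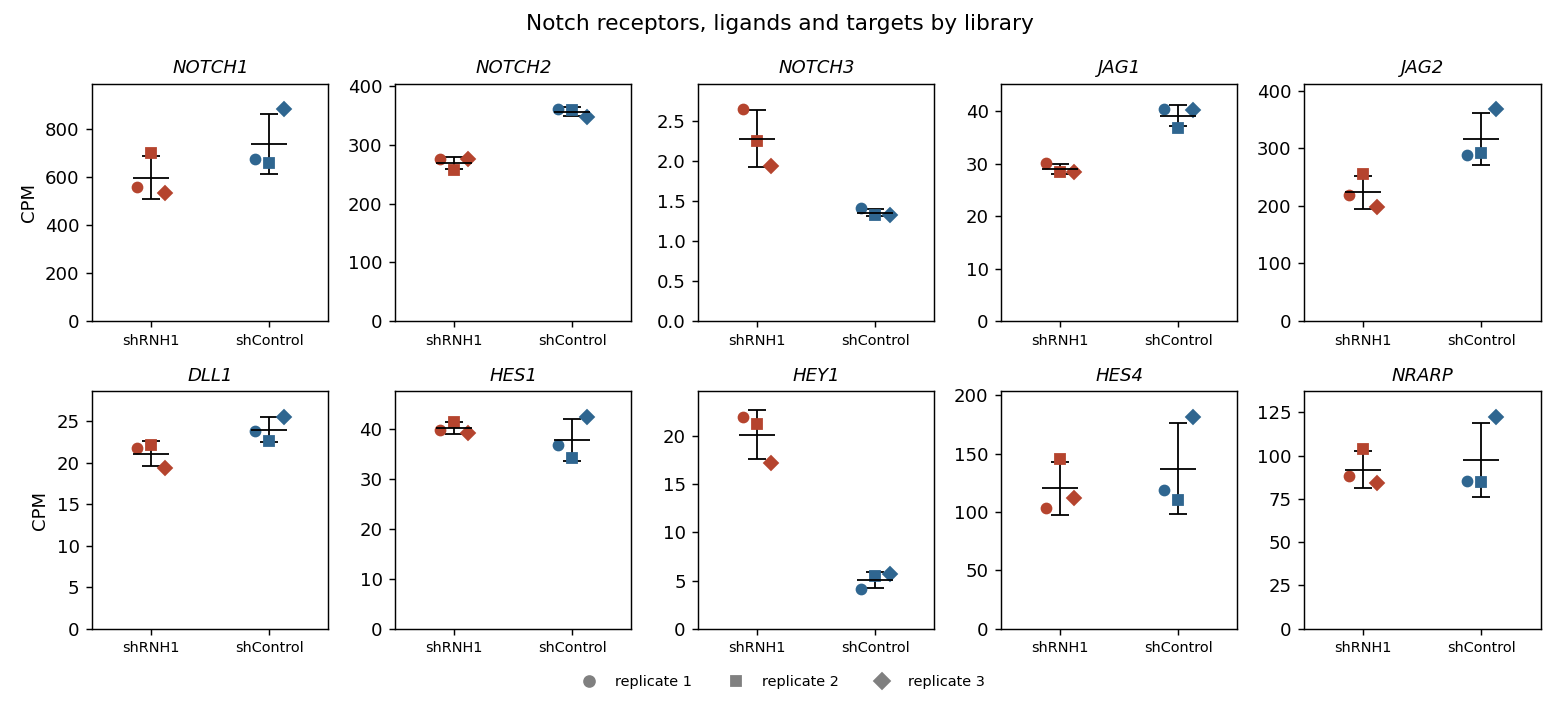
CPM of the 10 Notch genes in each library, shRNH1 in red at the left and shControl in blue at the right of each panel, with marker shape for replicate number and bars for mean ± SD (n = 3 each). HEY1 lies at 17.2 to 22.0 CPM in shRNH1 libraries and at 4.14 to 5.70 CPM in shControl libraries, while HES1, HES4 and NRARP overlap between groups.

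The 4 target genes did not move alike. HEY1 (chromosome 8, 79764010 to 79767863, minus strand), a repressor of the hairy and enhancer-of-split family, measured 22.0, 21.2 and 17.2 CPM in shRNH1 libraries, against 4.14, 5.44 and 5.70 CPM in shControl libraries. The lowest shRNH1 library stood far above the highest shControl library. The means were 20.1 ± 2.55 and 5.09 ± 0.839 CPM in shRNH1 and shControl cells (SD, n = 3 each), and the log2 fold change was 1.98 (SE 0.136), or 3.95-fold (95% interval 3.26 to 4.79). It ran from 1.85 to 2.09 over the 15 alternatives.

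HES1 (chromosome 3, 194136145 to 194138732, plus strand), the repressor most used as a readout of Notch activity, measured 39.7, 41.4 and 39.1 CPM in shRNH1 libraries, against 36.8, 34.2 and 42.4 CPM in shControl libraries. The groups overlapped, since shControl replicate 3 was the highest library of all and the other 2 shControl libraries the lowest. For HES1 the log2 fold change was 0.09 (SE 0.099) with a 95% interval of -0.12 to 0.29. For every 100 HES1 counts, HEY1 had 55.3, 51.1 and 44.0 counts in shRNH1 libraries and 11.3, 15.9 and 13.4 in shControl libraries, a comparison within a library that no scaling between libraries can move.

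HES4 (chromosome 1, 998962 to 1000172, minus strand), another repressor of the HES family, measured 103, 146 and 112 CPM in shRNH1 libraries, against 119, 111 and 182 CPM in shControl libraries. The highest library of each group, shRNH1 replicate 2 and shControl replicate 3, stood apart from its replicates. For HES4 the log2 fold change was -0.19 (SE 0.139), and it turned to 0.07 without shControl replicate 3. It was -0.35 without shRNH1 replicate 2, -0.28 without shControl replicate 1, -0.33 without shControl replicate 2, -0.09 without shRNH1 replicate 1, -0.06 when scaled by library size only, -0.10 with the expression level offset and -0.31 with the offset for GC content and length.

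NRARP (chromosome 9, 137300482 to 137302251, minus strand) encodes a feedback inhibitor that binds the Notch intracellular domain. It measured 88.0, 104 and 84.0 CPM in shRNH1 libraries, against 85.1, 84.8 and 122 CPM in shControl libraries. Again shRNH1 replicate 2 and shControl replicate 3 were the high ones, and the groups overlapped. The log2 fold change of NRARP was -0.08 (SE 0.118), and it turned to 0.12 without shControl replicate 3 and to 0.04 with library size alone. It was -0.18 without shControl replicate 1, shControl replicate 2 or shRNH1 replicate 2, -0.05 without shRNH1 replicate 1, -0.02 without shRNH1 replicate 3, -0.02 with the expression level offset and -0.21 with the GC and length offset.

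**Figure D3:**
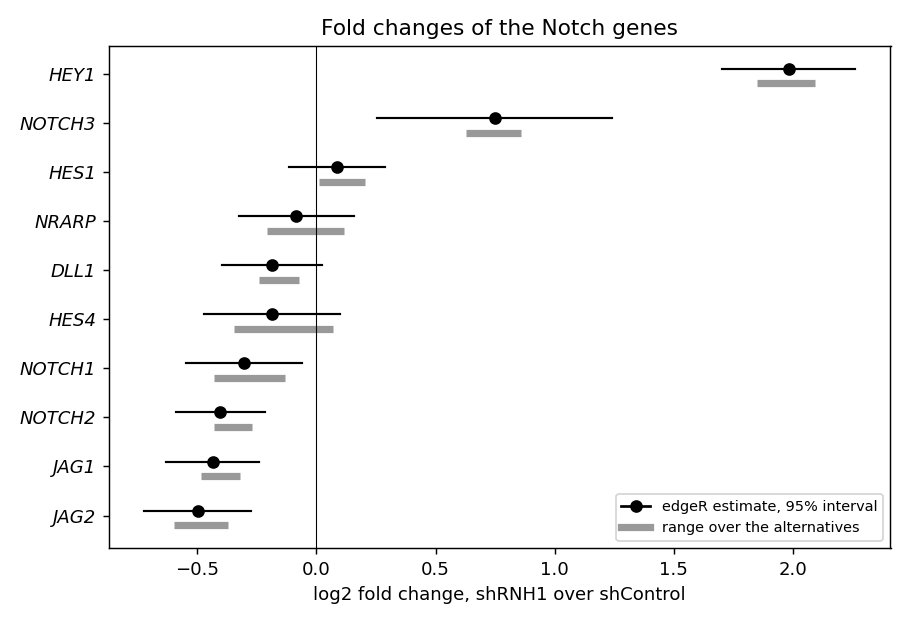
Log2 fold change (shRNH1 over shControl) of each Notch gene from edgeR with its 95% interval in black, and in grey the range over 15 alternatives. HEY1 is at 1.98 and NOTCH3 at 0.75, JAG2, JAG1 and NOTCH2 lie between -0.50 and -0.40, and the grey ranges of NRARP and HES4 cross 0.

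Several members shared a library pattern. NOTCH1, JAG2, DLL1, HES1, HES4 and NRARP were each highest in shRNH1 replicate 2 and in shControl replicate 3 within their groups. Of these, NOTCH1, JAG2, HES4 and NRARP, with 62.9% to 73.9% GC, lay in the GC-richest of 5 equal bins of tested genes, whereas DLL1 (58.4% GC) and HES1 (49.9% GC) did not. Over the 3750 genes of that bin, the median deviation from the group mean was 0.087 (log2) in shRNH1 replicate 2 and 0.122 in shControl replicate 3, and between -0.087 and 0.005 in the other 4 libraries. In shControl replicate 3 the 4 GC-rich members with the pattern deviated by 0.23 to 0.44, DLL1 by 0.091 and HES1 by 0.17. NOTCH3, with 63.1% GC, did not share the pattern. The part of GC content in this pattern was not tested. The offset for GC content and length shifts all libraries of a group alike, so it cannot address single libraries. With GC content and length as an offset the log2 fold changes were -0.39 for NOTCH1, -0.59 for JAG2, -0.40 for NOTCH2, -0.43 for JAG1 and 1.96 for HEY1.

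The rest of the pathway was taken from 8 lists by role, 73 genes, of which 65 were at a testable level. By edgeR 10 rose and 9 fell, 29.2% of those tested, close to the 27.6% over all genes, with a median log2 fold change of 0.02 on both sides. The lists were drawn up with earlier results of these data known, so nothing about the pathway is read from this share. Those that passed stand as single genes, and the adjusted p-values given for them carry the same limit. Among the 19, 10 genes with absolute log2 fold changes of 0.48 to 1.91 passed in each of the 15 alternatives, and the other 9, at 0.25 to 0.36, were lost in 4 to 10 of them.

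In these 8 lists the largest rise was in TLE2, a Groucho-type corepressor of the family that HES proteins recruit. It measured 47.1, 37.9 and 36.7 CPM in shRNH1 libraries, against 8.81, 10.8 and 12.7 CPM in shControl libraries. The groups were far apart, at a log2 fold change of 1.91 with SE 0.125 (adjusted p = 7.04e-12, edgeR), close in size to that of HEY1. Its relatives did not share that size, since TLE5 rose by 0.26 and TLE1 fell by 0.29 on the log2 scale. Of 15 tested corepressors, 2 rose and 3 fell (27.6% of all genes tested passed), with CTBP2 (-0.25) among those that fell.

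Genes that act on ligands and on receptor sugars came next. NEURL1B, a Neuralized ubiquitin ligase that drives ligand endocytosis in the signal-sending cell, measured 16.3, 21.6 and 17.5 CPM in shRNH1 libraries, against 5.11, 5.32 and 6.22 CPM in shControl libraries. It rose by 1.73 on the log2 scale (SE 0.132, adjusted p = 1.26e-10, edgeR), while its paralog NEURL1, at a higher level, fell by 0.51 on the log2 scale (44.8 ± 2.39 and 63.8 ± 3.48 CPM in shRNH1 and shControl cells, SD, n = 3 each). Of 11 tested endocytosis and ubiquitin genes these were 2 of 3 that passed, the third being the Deltex gene DTX2 (-0.26). Over all genes tested 27.6% passed. LFNG, the lunatic fringe glycosyltransferase that extends O-fucose on receptors, measured 61.7, 58.3 and 48.8 CPM in shRNH1 libraries, against 21.9, 24.5 and 31.7 CPM in shControl libraries. It was the 1 glycosylation gene of 9 that passed (log2 fold change 1.11, SE 0.118; adjusted p = 5.08e-08, edgeR), and the groups were clearly apart.

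Among the other receptors and ligands, DLL3, a divergent ligand known in mouse to inhibit Notch from within the cell, rose to 5.79 ± 0.422 CPM in shRNH1 cells, against 3.19 ± 0.268 in shControl cells (SD, n = 3 each), with a log2 fold change of 0.86 (adjusted p = 1.98e-04, edgeR). It was 1 of 5 tested there. NOTCH4 (0.47, adjusted p = 0.0878) and DNER (0.50, adjusted p = 0.0940) had separate groups, as did 40.0% of all genes tested, but did not pass edgeR's test. Of 9 receptor cleavage genes 3 rose and 1 fell, against 15.3% higher and 12.3% lower over all genes tested. PSEN2, a catalytic subunit of gamma-secretase, fell to 12.7 ± 0.687 CPM in shRNH1 cells, against 21.1 ± 1.68 in shControl cells (SD, n = 3 each; log2 fold change -0.73), while the subunit genes APH1B (0.83) and PSENEN (0.36) and the protease gene ADAM10 (0.33) rose.

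Of 9 nuclear activators, MAML2 (0.95), a Mastermind coactivator at 3.40 CPM in shRNH1 cells and 1.75 in shControl cells, rose, and SNW1 (-0.48) and the acetyltransferase gene KAT2A (-0.30) fell. SNW1 overlaps SLIRP on the other strand, which held 3176 counts against 6182 for SNW1 over the 6 libraries. In the remaining HES and HEY family, 4 of 8 genes were at a testable level, and HES7, an oscillating repressor of the segmentation clock in mouse, fell to 33.0, 35.0 and 35.6 CPM in shRNH1 libraries, against 51.8, 57.0 and 61.7 CPM in shControl libraries (log2 fold change -0.72, SE 0.096; adjusted p = 2.12e-06, edgeR). HES2 (0.28) rose. HEY2, the closest relative of HEY1, had 13 to 26 counts in a library and a log2 fold change of 0.39 with SE 0.425 (adjusted p = 0.555, edgeR).

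The smaller calls did not hold in every fit with 1 library left out, nor in every other alternative. ADAM10 did not pass without shRNH1 replicate 1 (0.34) or 3 (0.26) or shControl replicate 2 (0.31) or 3 (0.27), and PSENEN not without shRNH1 replicate 1 (0.26) or shControl replicate 2 (0.34). DTX2 was lost without shRNH1 replicate 1 (-0.29) or 3 (-0.21) or shControl replicate 1 (-0.29) or 3 (-0.20), and KAT2A without shRNH1 replicate 3 (-0.27). TLE1 was lost without shRNH1 replicate 1 (-0.29) or 3 (-0.28) or shControl replicate 3 (-0.21). HES2 was lost without shRNH1 replicate 1 (0.30) or 2 (0.24) or shControl replicate 1 (0.24) or 2 (0.25). CTBP2 was lost without each library but shRNH1 replicate 2 (-0.21 to -0.26), and TLE5 without each but shControl replicate 3 (0.21 to 0.29). Counts of the 8 lists were 6 higher and 5 lower without shRNH1 replicate 1, 8 and 4 without shRNH1 replicate 3, 6 and 8 without shControl replicate 2, and 9 and 5 without shControl replicate 3.

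**Figure D4:**
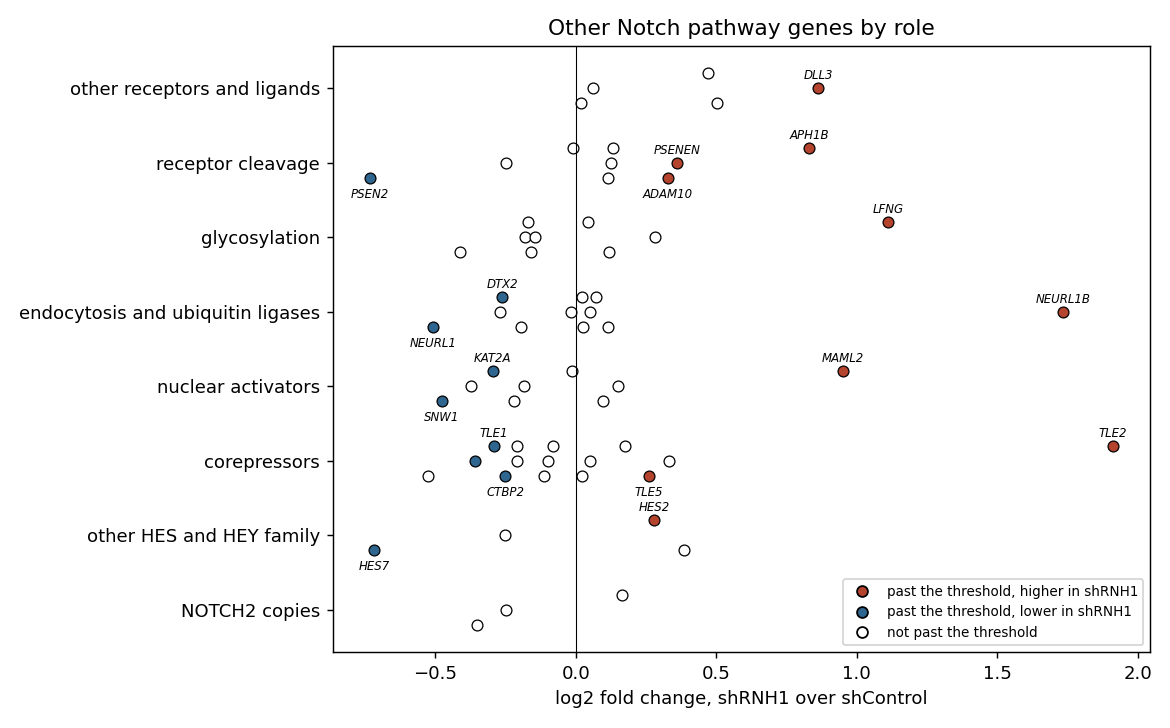
Log2 fold change (shRNH1 over shControl) of 65 tested genes of the other 8 pathway lists, 1 point per gene, filled red where higher and blue where lower past an adjusted p of 0.05 (edgeR) and open otherwise. TLE2, NEURL1B and LFNG stand at the right at 1.91, 1.73 and 1.11, and PSEN2 and HES7 at the left at -0.73 and -0.72. Vertical spread within a list has no meaning.

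Genes listed for the suprabasal layer, the compartment that Notch is known to promote, were in part too low to test. Of 13 listed, 6 were at a testable level, of which 3 rose and 1 fell (27.6% of all genes passed), and IVL, SPRR1A, SPRR3 and CRNN were listed at 0 in every library. The list was drawn up with earlier results of these data known, so nothing is read from its count. KRT13 and KRT4, paired keratins of the oesophageal suprabasal layers, rose. KRT13 measured 150.3, 155 and 143 CPM in shRNH1 libraries, against 57.4, 54.3 and 71.1 CPM in shControl libraries (log2 fold change 1.29, SE 0.101; adjusted p = 2.07e-10, edgeR). KRT4, at 50 to 60 counts in shRNH1 libraries and 16 to 21 in shControl libraries, had a log2 fold change of 1.68. CDKN1A (0.46), the cell cycle inhibitor p21, also rose, and the transglutaminase gene TGM1 (-0.52) fell, but did not pass without shRNH1 replicate 1 (-0.57) or 3 (-0.38) or shControl replicate 2 (-0.43).

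Genes next to the members on the chromosome were compared too. Of 20 nearest protein-coding neighbours in GENCODE 29, 16 were tested, and 6 rose and 0 fell by edgeR, against 15.3% higher and 12.3% lower over all genes (0 neighbours lower at an unadjusted p below 0.05, and by DESeq2 and limma-voom). HES4 lies head to head with ISG15, an interferon-inducible ubiquitin-like gene 965 bases away, which rose to 464 CPM in shRNH1 cells, against 261 in shControl cells (log2 fold change 0.83, SE 0.109; adjusted p = 1.53e-06, edgeR), while HES4 had -0.19. SLX4IP, 854 bases from JAG1, had -0.06 (adjusted p = 0.798, edgeR). The 5 others that rose included EXD3 (0.45, 4644 bases from NRARP), NUDT14 (0.34, 4113 bases from JAG2) and ILVBL (0.42, 33252 bases from NOTCH3). EGFL7 (0.36, 113069 bases from NOTCH1) and BTBD3 (0.33, 1216723 bases from JAG1) lay farther off. The call of EGFL7 was lost without shControl replicate 1 (0.33) or 2 (0.29), that of NUDT14 without shRNH1 replicate 1 (0.34) or shControl replicate 1 (0.33) or 2 (0.24), and that of BTBD3 without shRNH1 replicate 3 (0.29).

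By the profile over the 6 libraries, the genes most like HES1 among 10950 candidates whose mean log2 CPM reached 2 were TSPO, BAG1 and PGAP6, at root-mean-square differences of 0.019, 0.020 and 0.020 in centred log2 CPM. Those most like NOTCH1 were PPP1R35, SYDE1 and CEP170B, at 0.010, 0.021 and 0.022. Their log2 fold changes were 0.08, 0.11 and 0.09 for TSPO, BAG1 and PGAP6 and -0.31, -0.29 and -0.33 for PPP1R35, SYDE1 and CEP170B, near HES1 and NOTCH1 by construction.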

How the data were processed

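Gene expression was measured by poly(A) RNA sequencing in 3 shRNH1 and 3 shControl libraries. The deposited values are raw counts per Ensembl gene ID. GRCh38 is the build and HISAT2, StringTie and DESeq2 are the tools named per the submitters' processing notes, while versions, roles, strand setting and annotation release remain not given in the sources used here. Symbols were found for 62700 of 62700 IDs, and positions and exon lengths came from GENCODE 29 (58207 IDs, another release than that of the counts).

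Counts were tested with edgeR 4.0.16 (R 4.3.3) by quasi-likelihood, with TMM and filterByExpr, without covariates, and p-values of 19682 genes were adjusted by Benjamini-Hochberg (threshold 0.05). Standard errors were derived from the F statistic. CPM per kb divides by the union of exons. The code was tested on simulated data. It recovered 53.2% of 1.5-fold, 80% of 2-fold, 98% of 4-fold and 100% of 8-fold changes, and 7.43% of its calls were false. Alternatives were DESeq2 1.42.0, limma-voom (limma 3.58.1), relative log expression size factors, scaling by library size only, no filter, a stricter filter (3 libraries at a CPM of 1 or more), the replicate block, each library left out, an expression level offset and, added after seeing the data, an offset for GC content and length (splines with 5 degrees of freedom, MASS 7.3.60.0.1; 95.3% of tested genes had a value).

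Members and lists were chosen with earlier results of these data known. The naming rule took the members, RNASEH1 and RNH1, up to 3 genes past the threshold per list, nearest neighbours and nearest profiles (log2 of CPM plus 0.5). PSENEN, CTBP2, TLE5, TGM1, HEY2, NOTCH4 and DNER were named after their values were seen. Some listed genes enter the counts but are not reported here by name. Replicates differed by more than sampling noise (chi-square 6.47 to 21.1 per gene). The titles call them biological replicates, yet the cultures behind them are not described, and p-values reflect only the spread among these 6 samples, which may be technical.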

Additional observations from a re-analysis of the deposited data

How the results depend on the processing

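Over 15 alternatives, 145 of 150 values of the members moved by less than the spread between replicates, and no called member changed sign. The 5 that moved were NOTCH2 (-0.29), JAG1 (-0.32), DLL1 (-0.07) and HES1 (0.20) with library size alone and NOTCH2 (-0.27) with the expression level offset. Members past the threshold numbered 1 higher without shRNH1 replicate 1 and with the expression level offset (2 in the other fits), and 3 or 4 lower, the fourth being NOTCH1. NOTCH1 was past it by DESeq2 and limma-voom, and with relative log expression size factors, no filter or the GC and length offset. It also passed without shRNH1 replicate 2 or shControl replicate 2, and not in the other fits. Since the members were listed from this contrast, these calls describe how the fits differ and carry no test. Library size alone shifted the median of all genes to 0.127 (0.016 with TMM), called 4065 genes higher and 1433 lower (73.9% higher, against 55.4%), and called 15 other pathway genes higher and 4 lower (10 and 9 with TMM) and 0 suprabasal genes lower. Other pathway genes numbered 7 higher and 12 lower by DESeq2, and 7 and 11 with the GC and length offset. With the GC and length offset 48.3% of calls were higher. Leaving out 1 library gave 6 to 9 other pathway genes higher and 4 to 12 lower, and 0 to 1 suprabasal genes lower. Same-numbered libraries did not deviate together (r of 0.05, 0.03 and -0.15 across genes), so the numbers give no pairing. The replicate block called 5 other pathway genes lower, against 9, and 8 higher, against 10.

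Of 703 values of other named genes, 596 kept direction and side of the threshold, 76 lost it, 16 gained it and 15, none past it, changed sign. These were SEC22B (0.11), SLX4IP (0.05), ERMARD (0.07), OPA1 (0.035) and MRPS28 (0.016) with library size alone, SEC16A (0.051) with the expression level offset and PGAP6 (-0.003) with the GC and length offset. Leaving out 1 library gave -0.077 to 0.052 for SEC22B, -0.11 to 0.026 for ERMARD, -0.43 to 0.21 for EPHX3 and -0.42 to 0.21 for PERM1. The cause of these changes was not tested. With 3 libraries a group, small changes in genes of few counts, such as NOTCH3, were poorly resolved.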
